A study of Mus musculus with 12 samples.

Results

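The CD70 transgene was compared with its absence in mice that make no interferon-gamma. Of the 12 arrays of the series, 6 entered the comparison by their genotype label: 3 from CD70TG*Ifng-/- mice and 3 from Ifng-/- mice. Each array was hybridised with total RNA of 1 male mouse, and all mice were 10 to 12 weeks old and kept on a C57BL/6 background. RNA came from bone marrow cells of the hind legs that had been enriched for CD71, the transferrin receptor, with a biotinylated antibody and magnetic beads. Both groups lack Ifng, so the controls carry that deletion as well, and by their labels the groups differ by the transgene. The remaining 6 arrays, 3 from WT mice and 3 from CD70TG mice with an intact Ifng gene, were used to estimate the spread and to test whether the transgene effect differed with Ifng. The labels call the CD70TG line clone F13, which is a single transgenic line, and do not state its promoter. In the published line CD70 is driven by a B cell promoter.

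CD70 is a membrane protein of activated lymphocytes and dendritic cells, and its receptor CD27 on T cells passes on a costimulatory signal. T cells under lasting CD70 stimulation become effector cells that secrete interferon-gamma, which acts on many marrow cells and induces Irf1. Red cell precursors mature in erythroblastic islands around a central macrophage that binds them through Vcam1, takes up their expelled nuclei and recycles iron from haem. CD71 is abundant on erythroblasts, and macrophages, which also carry it or are held to erythroblasts, can stay in a CD71 enrichment.

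Values are log2 expression values relative to each gene's own median over the 12 arrays, so 0 is that median and a difference of 1 is a change of 2-fold. They hold differences between arrays but no absolute level. Genes were tested with limma over 19935 genes, and a gene was called where its Benjamini-Hochberg adjusted p was under 0.05. All adjusted p-values below are from that limma fit, and errors of differences are standard errors (SE). Because the tissue is a cell mixture, fewer cells of a type and less RNA per cell cannot be told apart.

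The arrays hold no unsorted marrow, so the erythroid identity of the enrichment could not be checked. Gata1, Klf1, Tfrc, Alas2 and Epor all stayed at or above 8 on the log2 scale before centring on every array. That level is not particular to erythroid genes. Of the lists described below, 9 of 27 lysosomal and 4 of 20 mature neutrophil genes lay there too. Between arrays of 1 group, the median absolute difference over genes was 0.091 to 0.141. Ifng-/- mouse 2 stood apart from its group: over all genes, its values correlated at 0.04 and 0.14 with those of Ifng-/- mice 1 and 3, which correlated at 0.53 with each other. Along the leading principal component (39.3% of variance) the Ifng-/- arrays lay at -24.6, 3.3 and -12.5 and the CD70TG*Ifng-/- arrays at 17.7, 6.4 and 12.1. Results that rest on Ifng-/- mouse 2 are given with and without it. The deleted gene could not check the labels, because the Ifng values (-0.16, -0.01 and -0.02 without the transgene and -0.11, 0.20 and 0.02 with it) came from probes whose position relative to the deletion is not stated. Cd70 read -0.09, -0.49 and 0.04 in Ifng-/- against 0.05, 0.34 and 0.26 in CD70TG*Ifng-/-. The groups did not overlap, but the difference of 0.39 ± 0.12 was not called (adjusted p = 0.135). Its receptor Cd27 differed by 0.00 (95% interval -0.20 to 0.21).

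Without interferon-gamma the transgene lowered many genes and raised few. In CD70TG*Ifng-/-, 468 genes were called lower, which is 2.35% of all genes tested, and 31 were called higher (0.156%). The calls were therefore 93.8% lower, while the median difference over all genes was 0.04. Of the lower genes 159 were at least 2-fold lower and 34 at least 4-fold, and no called rise reached 2-fold. Each called gene had groups that did not overlap. Among all genes, 7.09% had the 3 CD70TG*Ifng-/- arrays below the 3 Ifng-/- arrays and 9.32% had them above. Without Ifng-/- mouse 2, 744 genes were called lower and 124 higher, and 448 of the 468 remained among the lower. The count of lower genes was 308 without CD70TG*Ifng-/- mouse 2, 292 without CD70TG*Ifng-/- mouse 3 and 310 without Ifng-/- mouse 1.

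The largest falls were genes of resident tissue macrophages, led by Vcam1, the adhesion molecule with which island macrophages bind erythroblasts. Vcam1 read 1.67, 1.37 and 1.77 in the Ifng-/- arrays and -2.68, -2.57 and -2.57 in the CD70TG*Ifng-/- arrays, which is 18.5-fold lower (log2 difference -4.21 ± 0.18, adjusted p = 2.31e-08). Cd5l, a secreted scavenger protein of macrophages, stood at 2.25, 1.68 and 1.73 without the transgene and at -1.72, -1.83 and -1.93 with it, 13.1-fold lower (-3.72 ± 0.19, adjusted p = 6.34e-08). Hmox1, the haem oxygenase that opens the haem ring, fell 12.8-fold, from 2.01, 1.86 and 2.11 to -1.83, -1.75 and -1.50 (-3.68 ± 0.17, adjusted p = 2.31e-08). In these 3 genes every array with the transgene lay more than 3 log2 units below every array without it, Ifng-/- mouse 2 included.

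**Figure D1:**
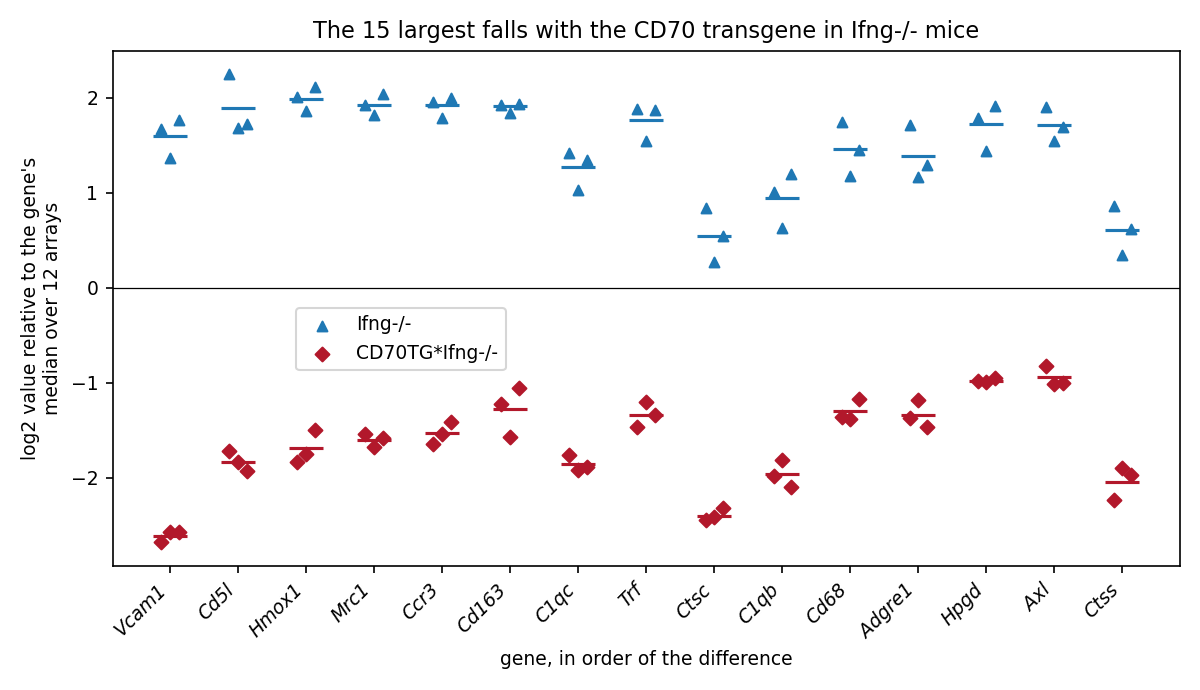
The 15 genes with the largest called falls, with the log2 value relative to the gene's median over 12 arrays on the y axis and 1 point per mouse; triangles are the 3 Ifng-/- mice, diamonds the 3 CD70TG*Ifng-/- mice and short lines the group means. Vcam1 runs from 1.37 to 1.77 without the transgene and from -2.68 to -2.57 with it, and in none of the 15 genes do the groups overlap.

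The other 12 of the 15 largest falls were Mrc1, Ccr3, Cd163, C1qc, Trf, Ctsc, C1qb, Cd68, Adgre1, Hpgd, Axl and Ctss, between 11.6-fold for Mrc1 and 6.28-fold for Ctss. Most are described below with the list they belong to. They code for receptors, complement, transport and lysosomal proteins known from macrophages, apart from Ccr3, the eotaxin receptor best known from eosinophils. Members of 9 gene lists for macrophages, monocytes and their lysosomes made up 162 measured genes, of which 85 fell and 0 rose. Of all genes tested, 2.35% were called lower and 0.156% higher, so 0 rises among 162 genes say little. These shares also apply to the list counts below. All lists were chosen with earlier results of these data known, so the list counts are a description and not a test. The medians given below moved by over 1.5 times in 4 of the 9 lists above when 1 array was left out. Without Ifng-/- mouse 1 they were -0.59 for macrophage adhesion and identity, -0.18 for macrophage transcription factors, -0.38 for the monocyte lineage and -0.26 for Toll-like receptors, and without Ifng-/- mouse 2 that of the monocyte lineage was -0.90.

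Among 12 genes of macrophage adhesion and identity, 6 fell and 0 rose, with a median difference of -1.04. Cd68, a lysosomal membrane protein of phagocytes, was at 1.75, 1.18 and 1.45 in Ifng-/- and at -1.36, -1.38 and -1.17 in CD70TG*Ifng-/- (6.81-fold lower, -2.77 ± 0.17). Adgre1, an adhesion receptor used as a general marker of mouse macrophages, went from 1.71, 1.17 and 1.29 to -1.37, -1.18 and -1.47 (6.62-fold lower, -2.73 ± 0.20). Csf1r, the receptor for the macrophage growth factor Csf1, was 3.19-fold lower (-1.68 ± 0.13), and Siglec1, the sialic acid receptor CD169, was 2.30-fold lower (-1.20 ± 0.10). In all 4 the arrays with the transgene were below 0 and those without it above 0. Itgam, the integrin chain CD11b that granulocytes also carry, named here after its values were seen, was not called: it read 1.94, -0.47 and 0.58 against -0.32, -0.06 and -0.20 (adjusted p = 0.386), and its groups overlapped.

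Scavenger and lectin receptors, which take up modified proteins, sugars and debris, fell in 12 of 20 members and rose in 0, with a median of -0.90. Mrc1, the mannose receptor, had values of 1.92, 1.82 and 2.04 in Ifng-/- and of -1.54, -1.68 and -1.58 with the transgene (11.6-fold lower, -3.53 ± 0.19, adjusted p = 6.41e-08). Cd163, which takes up haemoglobin bound to haptoglobin, was 9.12-fold lower (1.93, 1.84 and 1.94 against -1.22, -1.57 and -1.06). Fcna, a ficolin that binds sugars on microbes, was 5.16-fold lower (-2.37 ± 0.19), and the C-type lectin gene Clec4a1 was 4.05-fold lower (-2.02 ± 0.19). The members differed widely among themselves, from -3.72 for Cd5l to 0.14.

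Genes for the uptake of dying cells and expelled nuclei fell in 10 of 19 members, with a median of -0.62 and 0 rises. C1q, whose 3 chains coat apoptotic cells, was lower in each chain. C1qc read 1.42, 1.03 and 1.35 in Ifng-/- against -1.76, -1.92 and -1.89 in CD70TG*Ifng-/- (8.71-fold lower, -3.12 ± 0.14). C1qb was 7.51-fold lower (-2.91 ± 0.19) and C1qa 6.19-fold lower (-2.63 ± 0.18). Axl, a receptor kinase that senses phosphatidylserine through Gas6, read 1.90, 1.55 and 1.69 against -0.82, -1.01 and -1.0 (6.30-fold lower, -2.66 ± 0.18). Abca1, which exports cholesterol after engulfment, was 2.10-fold lower (-1.07 ± 0.09).

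Promoters of called genes were searched for short motifs, and those of C1qc and of Ctsc, a lysosomal protease described below, are shown because they hold the core of a site for PU.1, the myeloid factor made by Spi1. The stretches lie before the annotated gene start in RefSeq on the GRCm38.p6 build, are written 5′ to 3′ along the gene and have the motif in capitals, here as ACTTCCTC because GAGGAAGT matches the opposite strand. They are chr4:136893072-136893139 for C1qc, a gene on the minus strand, and chr7:88277904-88277971 for Ctsc, on the plus strand.
C1qc: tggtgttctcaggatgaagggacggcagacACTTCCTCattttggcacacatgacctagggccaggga
Ctsc: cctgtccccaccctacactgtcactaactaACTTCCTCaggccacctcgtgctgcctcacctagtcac
GAGGAAGT, on either strand, was present for 7.0% of 373 genes called lower (26 genes) and for 3.2% of all 15612 measured genes with a promoter entry. Each promoter was the 250 bases before and 50 bases after a gene start. The 15612 genes had 19175 entries, and a gene counted where any of its entries matched. The Stat motif TTCNNNGAA was in 8.8% and 9.0%, the GATA motif AGATAA in 11.3% and 10.8%, and TGANTCAGC, part of an antioxidant element, in 2.1% and 1.4%. By list, GAGGAAGT was in 0 of 15 scavenger and lectin receptor genes, 0 of 12 haem and iron recycling genes and 1 of 4 adhesion and identity genes. It was in 2 of 11 complement and Fc receptor, 3 of 23 lysosomal and 2 of 13 Toll-like receptor genes. These are shares of matching letters only. Spi1 itself read 0.95, -0.05 and 0.30 against -0.34, -0.16 and -0.35 and was not called (-0.69 ± 0.19, adjusted p = 0.0782).

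Haem and iron recycling genes fell in 8 of 17 members, with a median of -0.38. Spic, the transcription factor of iron-recycling macrophages, read 1.24, 1.11 and 1.27 without the transgene and -0.96, -1.18 and -1.04 with it (4.81-fold lower, -2.27 ± 0.13, adjusted p = 1.73e-07). Trf, the iron carrier transferrin, was at 1.88, 1.55 and 1.87 against -1.47, -1.20 and -1.34 (8.60-fold lower, -3.10 ± 0.19). Slc40a1, the iron exporter ferroportin, was 2.13-fold lower (-1.09 ± 0.14, adjusted p = 0.000288) and lay at a log2 level of at least 8 on every array. With Hmox1 and Cd163, the called members therefore spanned uptake of haemoglobin, opening of haem and export of iron. The count was 5 without CD70TG*Ifng-/- mouse 2 and 5 without CD70TG*Ifng-/- mouse 3. The 5 genes named here, picked for the smallest p in the list, kept their calls without any single array.

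Of 19 macrophage transcription factors, 6 fell and 0 rose, with a median of -0.31. Pparg, a lipid-sensing nuclear receptor, was 2.78-fold lower (0.92, 0.83 and 1.06 against -0.69, -0.44 and -0.49). Id2, an inhibitor of helix-loop-helix factors, was 3.58-fold lower (-1.84 ± 0.19). Nr1h3, the sterol sensor LXR alpha, was 1.6-fold lower (-0.68 ± 0.11, adjusted p = 0.00265). Irf8, which directs monocyte and dendritic cell fate, was 1.67-fold lower with an adjusted p of 0.0136, and 0.083 without CD70TG*Ifng-/- mouse 3.

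Complement and Fc receptor genes fell in 10 of 15 members, with a median of -1.24. Besides the C1q chains, Cfp, which codes for properdin, a stabiliser of the alternative complement pathway, read 1.54, 0.91 and 1.31 against -1.15, -1.19 and -1.04 (5.22-fold lower, -2.38 ± 0.19). Fcer1g, the signalling chain shared by Fc receptors, was 5.15-fold lower (1.32, 0.35 and 0.80 against -1.65, -1.47 and -1.49). Fcgr1, the high-affinity IgG receptor and a textbook interferon-gamma target, was 2.36-fold lower (-1.24 ± 0.13, adjusted p = 6.4e-05) while neither group can make interferon-gamma.

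Of 22 monocyte lineage genes, 10 fell and 0 rose, with a median of -0.58. Sirpa, the receptor for the CD47 signal of healthy cells, read 1.45, 0.76 and 0.96 against -1.23, -1.11 and -1.18 (4.68-fold lower, -2.23 ± 0.19). Mpeg1, a pore-forming protein of phagosomes, was 5.72-fold lower (1.07, 0.39 and 0.64 against -1.95, -1.68 and -1.80). The membrane protein genes Ms4a7 and Ms4a6d were 1.99-fold and 1.85-fold lower. The list's count was 6 without CD70TG*Ifng-/- mouse 1, 6 without CD70TG*Ifng-/- mouse 3 and 6 without Ifng-/- mouse 3. Sirpa, Mpeg1, Ms4a7 and Ms4a6d, picked for a small p in the list, kept their calls without any single array.

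Toll-like receptors and their accessory proteins fell in 8 of 19 members, with a median of -0.45. Tlr7, a sensor of single-stranded RNA, was 3.00-fold lower (1.24, 1.06 and 1.13 against -0.54, -0.48 and -0.29). Tlr4, the lipopolysaccharide receptor, was 2.65-fold lower (-1.40 ± 0.14), and its partner Ly96 was 2.47-fold lower (-1.31 ± 0.14). Ly86, which codes for MD-1, the partner of Cd180, was 4.45-fold lower (0.71, 0.03 and 0.51 against -1.61, -1.93 and -1.68). Tlr13, a sensor of bacterial ribosomal RNA, was 2.78-fold lower (-1.48 ± 0.16).

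Lysosomal enzymes and lipid handling genes were the list with the most falls, 22 of 27, with a median of -0.88 and every member below 0. Apoe, a lipid carrier that macrophages secrete, read 1.61, 1.00 and 1.43 against -1.37, -1.10 and -1.33 (6.12-fold lower, -2.61 ± 0.17) and lay at a log2 level of at least 8 throughout. Lpl, lipoprotein lipase, was 4.27-fold lower (-2.09 ± 0.17), and Hpgd, which inactivates prostaglandins, was 6.46-fold lower (-2.69 ± 0.23). Ctsc, a protease that activates granule enzymes, read 0.84, 0.27 and 0.55 against -2.45, -2.41 and -2.32 (7.73-fold lower, -2.95 ± 0.26). Ctss, the protease that frees MHC class II from its invariant chain, read 0.86, 0.35 and 0.62 against -2.24, -1.90 and -1.97 (6.28-fold lower, -2.65 ± 0.22). In Ctsc and Ctss the Ifng-/- arrays lay nearer to 0 and the arrays with the transgene farther from it than in Apoe.

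Of 30 cytokine and chemokine genes, 6 fell and 0 rose, with a median of -0.04. Il18, an inducer of interferon-gamma that macrophages store, was 2.33-fold lower (0.66, 0.69 and 0.75 against -0.69, -0.29 and -0.58). Ccl6, a chemokine of myeloid cells, was 2.69-fold lower (1.56, 0.24 and 0.90 against -0.83, -0.24 and -0.50, adjusted p = 0.00349). Il1b, Ccl3 and Cxcl2 had differences of -0.85, -1.38 and -0.55 with adjusted p-values of 0.0105, 0.0179 and 0.0298. The list's count was 3 without CD70TG*Ifng-/- mouse 1, 3 without CD70TG*Ifng-/- mouse 2 and 3 without CD70TG*Ifng-/- mouse 3. Il1b missed the threshold without CD70TG*Ifng-/- mouse 3 (adjusted p = 0.0507), and Ccl3 missed it without CD70TG*Ifng-/- mouse 1 (0.0693), mouse 2 (0.0856) or mouse 3 (0.0595). Cxcl2 missed it without those same mice (0.0878, 0.0757 and 0.143) and without Ifng-/- mouse 1 (0.102) or mouse 3 (0.0967).

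**Figure D2:**
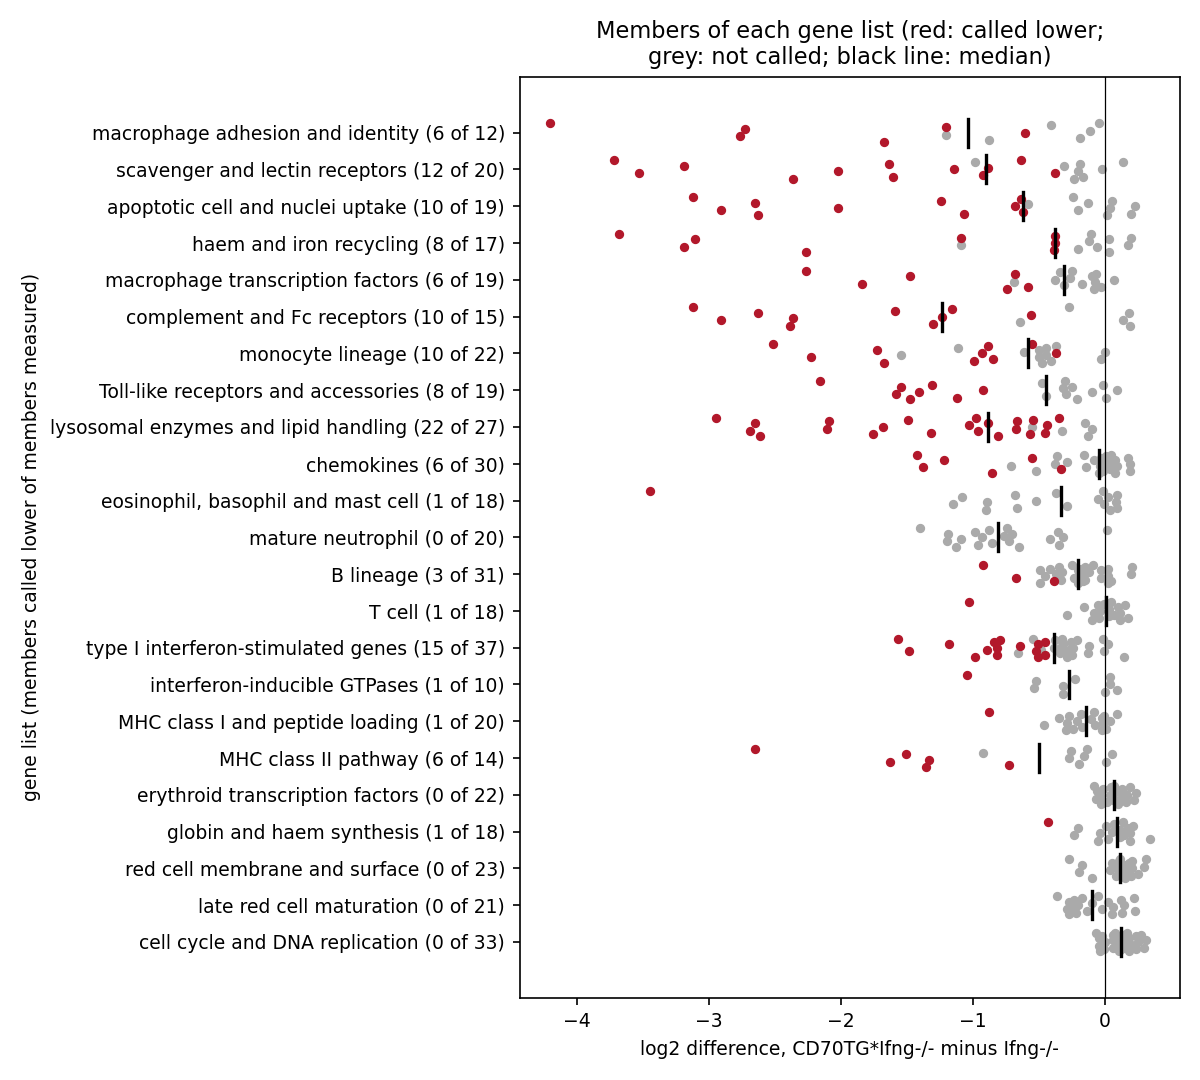
Each point is a gene of the list named on the y axis, placed by its log2 difference (CD70TG*Ifng-/- minus Ifng-/-) on the x axis, with called falls in red, uncalled genes in grey and the list's median as a black line. Called falls make up 22 of 27 lysosomal genes, 12 of 20 scavenger and lectin receptor genes and 15 of 37 type I interferon-stimulated genes, where 2.35% of all genes tested were called lower. The lists were chosen with earlier results of these data known, so these counts are a description.

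Other marrow cells were read from their marker lists. Ccr3, listed with eosinophil, basophil and mast cell genes, was at 1.96, 1.79 and 2.00 in Ifng-/- and at -1.65, -1.54 and -1.41 with the transgene (10.9-fold lower, -3.45 ± 0.20, adjusted p = 1.73e-07). It was the only one of 18 members called. The eosinophil granule gene Prg2 read 1.78, -0.12 and 1.45 against -0.32, 0.12 and -0.13 (adjusted p = 0.202), and the eosinophil ribonuclease gene Ear6 read 1.88, -0.17 and 1.36 against -0.17, 0.19 and -0.20 (adjusted p = 0.174). In both, Ifng-/- mouse 2 lay with the transgenic arrays while in Ccr3 it lay with its own group. Without Ifng-/- mouse 2, 7 of the 18 were called lower. The list's median of -0.33 was -0.55 without that mouse and -0.04 without Ifng-/- mouse 1.

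The mature neutrophil list depended on Ifng-/- mice 1 and 2. Its mean was 1.62, -0.55 and 0.49 in the Ifng-/- arrays and -0.47, -0.02 and -0.29 in the CD70TG*Ifng-/- arrays. With all arrays limma called 0 of 20 members, 9 of them at an unadjusted p under 0.05, and the median was -0.81. Without Ifng-/- mouse 2, 18 of 20 were called lower and the median was -1.53. Without Ifng-/- mouse 1, 0 were called and the median was -0.22. Cxcr2, a chemokine receptor of neutrophils, read 2.11, 0.01 and 1.02 against -0.51, -0.11 and -0.43 (adjusted p = 0.0538), and Retnlg read 2.13, -0.53 and 0.98 against -0.69, 0.04 and -0.35 (adjusted p = 0.291). Granule genes of early granulocytes gave 0 limma calls of 15 (3 at an unadjusted p under 0.05), and 4 lower without Ifng-/- mouse 2. Their median of -0.40 was -0.61 without Ifng-/- mouse 2, -0.12 without Ifng-/- mouse 1 and -0.27 without CD70TG*Ifng-/- mouse 2. For comparison, the scavenger receptor list had means of 0.89, 0.54 and 0.65 in Ifng-/- and of -0.50, -0.49 and -0.52 with the transgene, so there Ifng-/- mouse 2 lay with its group.

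**Figure D3:**
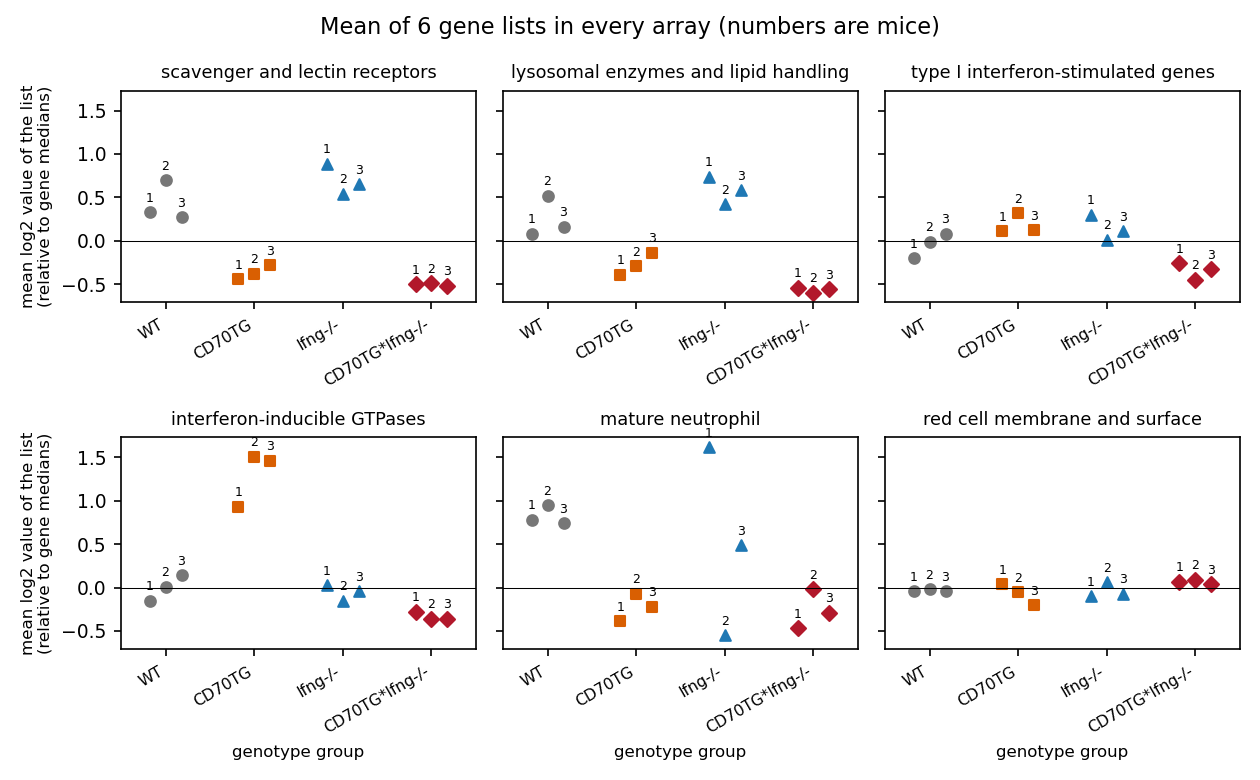
Mean log2 value, relative to gene medians, of 6 gene lists in each of the 12 arrays, with the 4 genotype groups on the x axis and the mouse number above each point. Scavenger receptor means lie between 0.54 and 0.89 in Ifng-/- and between -0.52 and -0.49 in CD70TG*Ifng-/-, while for mature neutrophil genes Ifng-/- mouse 2, at -0.55, lies below all 3 transgenic Ifng-/- mice.

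B lineage genes, of interest because the transgene of the published line is expressed in B cells, fell in 3 of 31 members, beside 2.35% of all genes. The list's median was -0.20, or -0.10 without Ifng-/- mouse 1. Bank1, a B cell adaptor protein, read 0.55, 0.50 and 0.66 against -0.41, -0.52 and -0.14 (1.90-fold lower, -0.93 ± 0.11, adjusted p = 0.000157). Fcrl1, an Fc receptor-like protein of B cells, was 1.30-fold lower (adjusted p = 0.00756). Cd79b, a signalling chain of the B cell receptor, had an adjusted p of 0.0453 and missed the threshold when any array other than Ifng-/- mouse 2, CD70TG mouse 3 or WT mouse 2 was left out (0.0501 to 0.2). Without Ifng-/- mouse 2, 9 of 31 were called lower. Its partner Cd79a, at 0.65, 0.02 and 0.37 against -0.08, -0.33 and -0.02, was not called here (-0.49 ± 0.15, adjusted p = 0.148).

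T, NK, dendritic, plasma, megakaryocyte and stromal markers were read in the same way, beside 2.35% of all genes called lower. In the T cell list 1 of 18 members was called, Cd4, whose 0.70, 0.82 and 0.60 in Ifng-/- became -0.51, -0.30 and -0.15 (2.04-fold lower, -1.03 ± 0.09, adjusted p = 1.2e-05). The T cell receptor component Cd3d read 0.00, -0.24 and 0.03 against 0.21, 0.17 and -0.05 (0.18 ± 0.12, adjusted p = 0.604). Whether Cd4 differed from Cd3d was not tested. The 1 call among 20 NK cell genes, Klrc1 (-0.36, adjusted p = 0.0491), was lost when any array other than Ifng-/- mouse 2 was left out. In the dendritic cell list 2 of 16 were called, Irf8 and Itgax (-0.37, adjusted p = 0.0206), and the count was 0 without CD70TG*Ifng-/- mouse 3 and 1 without CD70TG*Ifng-/- mouse 1, Ifng-/- mouse 1 or Ifng-/- mouse 3. In the megakaryocyte list 1 of 14 was called, Plek, a signalling substrate also found in leukocytes, which was 2.65-fold lower (-1.41 ± 0.20), and 3 were called without Ifng-/- mouse 2 and 2 without CD70TG mouse 2. Kitl, the ligand of the receptor Kit, was the only stromal gene of 20 to be called (1.37-fold lower, adjusted p = 0.0133) and missed the threshold without CD70TG*Ifng-/- mouse 2 (0.0522), CD70TG*Ifng-/- mouse 3 (0.0747) or Ifng-/- mouse 3 (0.0522). Of 14 plasma cell genes limma called 0, with 2 at an unadjusted p under 0.05, and 1 was without Ifng-/- mouse 2 and 1 without WT mouse 1. All 18 T cell, 20 NK cell and 14 plasma cell genes lay outside the class of genes at a log2 level of at least 8 on every array.

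Interferon-stimulated genes were examined because interferon-gamma is absent from both groups. Without it, the transgene raised 0 and lowered 15 of 37 type I interferon-stimulated genes, with a median of -0.38, where 2.35% of all genes were called lower. In 27 of the 37 all arrays with the transgene lay below all arrays without it, as in 7.09% of all genes. Irf7, the master factor of the type I response, read 0.67, 0.18 and 0.46 in Ifng-/- against -0.44, -0.67 and -0.54 in CD70TG*Ifng-/- (1.98-fold lower, -0.98 ± 0.14, adjusted p = 0.000667). Rtp4, an interferon-induced chaperone of membrane receptors, read 0.47, -0.13 and 0.59 against -1.24, -1.45 and -0.85 (2.80-fold lower, -1.49 ± 0.23, adjusted p = 0.00145). Ifit1, which binds uncapped viral RNA, read 0.19, -0.19 and 0.05 against -0.52, -1.05 and -0.83 (1.76-fold lower, -0.82 ± 0.12), and Oas1a, an RNA-activated synthetase, was 1.42-fold lower (-0.51 ± 0.08, adjusted p = 0.00191). Lgals3bp, a secreted binding protein of galectins, was 2.27-fold lower (-1.18 ± 0.17). Genes of macrophages, which respond to interferons, fell in the same arrays, with the scavenger receptor means given above, and their part in this result was not tested. The list's count was 7 without CD70TG*Ifng-/- mouse 2, 7 without CD70TG*Ifng-/- mouse 3 and 7 without Ifng-/- mouse 1. The 5 genes named here, picked for the smallest p in the list, kept their calls without any single array.

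The promoters of Ifit1 and Oas1a are shown for the core of the interferon-stimulated response element, GAAANNGAA, to which interferon-activated factors bind. The stretches are chr19:34640750-34640818 for Ifit1 on the plus strand, where the capitals hold 3 matches on the opposite strand, the first 2 overlapping, and chr5:120907526-120907575 for Oas1a on the minus strand, where they hold 2 overlapping matches on the gene's own strand, both from RefSeq on GRCm38.p6.
Ifit1: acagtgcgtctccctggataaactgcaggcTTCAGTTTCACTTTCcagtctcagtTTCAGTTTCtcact
Oas1a: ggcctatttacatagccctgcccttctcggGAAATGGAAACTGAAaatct
Of the list's 26 genes with a promoter entry, 13 held GAAANNGAA on either strand, against 9.2% of all 15612 genes with an entry and 14.5% of such genes called lower. Within the list it was in 7 of the 12 genes called lower (58.3%) and in 6 of the 14 not called (42.9%).

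Other interferon-gamma target genes were read by kind, beside 2.35% of all genes called lower. Of 20 interferon-inducible GTPases listed, 10 were measured. Of these 10, 1 fell: Gbp8 read 0.08, -0.08 and 0.21 against -0.88, -0.99 and -1.04 (2.06-fold lower, -1.04 ± 0.17, adjusted p = 0.00192). The list's median was -0.27, and limma gave 4 of the 10 lower at an unadjusted p under 0.05. In 5 of the 10 all arrays with the transgene lay below all arrays without it, where 7.09% of all genes did. Iigp1, a GTPase that attacks vacuoles of intracellular parasites, read 0.00, -0.23 and -0.32 against -0.22, -0.01 and -0.20 (0.04 ± 0.24, adjusted p = 0.961). Among 21 genes of interferon-gamma signalling and its other targets 6 fell, among them Casp1, the inflammasome protease (-0.86 ± 0.16, adjusted p = 0.00651). The receptor chains Ifngr1 and Ifngr2 were 1.91-fold and 1.73-fold lower, at 1.07, 0.44 and 0.38 against -0.29, -0.36 and -0.24 for Ifngr1 (adjusted p = 0.0167) and at 0.84, -0.02 and 0.10 against -0.53, -0.31 and -0.61 for Ifngr2 (adjusted p = 0.0352). The 6 calls were 3 without CD70TG*Ifng-/- mouse 2, 2 without CD70TG*Ifng-/- mouse 3 and 3 without Ifng-/- mouse 1. Ifngr1 missed the threshold without CD70TG*Ifng-/- mouse 1 (0.057), mouse 2 (0.0824) or mouse 3 (0.0612) or Ifng-/- mouse 1 (0.0614), and Ifngr2 missed it without the same 4 arrays (0.115, 0.062, 0.164 and 0.0874), without CD70TG mouse 2 (0.0565) and without WT mouse 3 (0.053). Irf1, the first factor induced by interferon-gamma, was not called (-0.15 ± 0.13, adjusted p = 0.689).

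In the MHC class II pathway 6 of 14 members fell, with a median of -0.50. H2-Ab1, the beta chain of I-A, read -0.04, 0.11 and 0.04 in Ifng-/- and -1.20, -1.64 and -1.13 with the transgene (2.56-fold lower, -1.36 ± 0.29, adjusted p = 0.0179), and H2-Aa, its alpha chain, read -0.03, 0.03 and 0.04 against -1.48, -2.0 and -1.01 (2.84-fold lower, adjusted p = 0.0277). Cd86, a costimulatory ligand, was 3.09-fold lower (-1.63 ± 0.14), and H2-DMa, which edits class II peptides, 1.66-fold lower (-0.73 ± 0.11, adjusted p = 0.000935). The count was 3 without CD70TG*Ifng-/- mouse 2 and 3 without Ifng-/- mouse 3. H2-Ab1 missed the threshold without CD70TG*Ifng-/- mouse 2 (0.113) or Ifng-/- mouse 3 (0.0646), and H2-Aa without CD70TG*Ifng-/- mouse 1 (0.0838) or mouse 2 (0.162) or Ifng-/- mouse 1 (0.0632) or mouse 3 (0.0917). Under quantile normalization the count was 3, and H2-Ab1 (adjusted p = 0.0684) and H2-Aa (0.122) missed the threshold.

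In the MHC class I and peptide loading list 1 of 20 members fell, with a median of -0.14, beside 2.35% of all genes called lower. It was B2m, the light chain of all class I molecules, at 0.28, -0.17 and 0.06 against -0.69, -0.97 and -0.79 (1.83-fold lower, -0.87 ± 0.18, adjusted p = 0.0132). B2m missed the threshold without CD70TG*Ifng-/- mouse 2 (0.0816), CD70TG*Ifng-/- mouse 3 (0.0553) or Ifng-/- mouse 1 (0.0603), and under quantile normalization (0.0961), where limma called 0 of the 20 members, with 7 at an unadjusted p under 0.05. H2-Q4 (-0.35 ± 0.16, adjusted p = 0.392), whose probes may also read near-identical class I genes, Tap1 (-0.27 ± 0.15, adjusted p = 0.492) and Psmb9 (-0.24 ± 0.13, adjusted p = 0.507) were not called.

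Whether the transgene acted differently without interferon-gamma was tested as an interaction, the difference of CD70TG*Ifng-/- minus Ifng-/- less that of CD70TG minus WT, which share no arrays. The effect without Ifng was called below the effect with Ifng in 321 genes (1.61% of those tested) and above it in 56 (0.281%). The total of 377 ranged from 82 without WT mouse 1 to 711 without CD70TG*Ifng-/- mouse 1. It was 85 and 94 without CD70TG*Ifng-/- mice 2 and 3, 88 without CD70TG mouse 2, 233 and 226 without CD70TG mice 1 and 3, 210 without WT mouse 3 and 180 without Ifng-/- mouse 3. The interferon-inducible GTPases, of which CD70TG raised all 10 when Ifng was intact, had 8 called interactions, all below. Iigp1 read 0.00, 0.33 and 0.58 in WT and 2.68, 3.94 and 3.72 in CD70TG, against the values near 0 given for both groups without Ifng (interaction -3.11 ± 0.34, adjusted p = 0.000818). For Gbp8 the interaction was -2.68 ± 0.23 and for H2-Ab1 -2.85 ± 0.41, and in both the 2 effects had opposite signs: with Ifng, Gbp8 was 1.64 higher and H2-Ab1 1.49 higher in CD70TG than in WT. Interactions below 0 were also called in 16 of 37 type I interferon-stimulated genes, 13 of 20 MHC class I genes and 6 of 14 MHC class II genes.

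**Figure D4:**
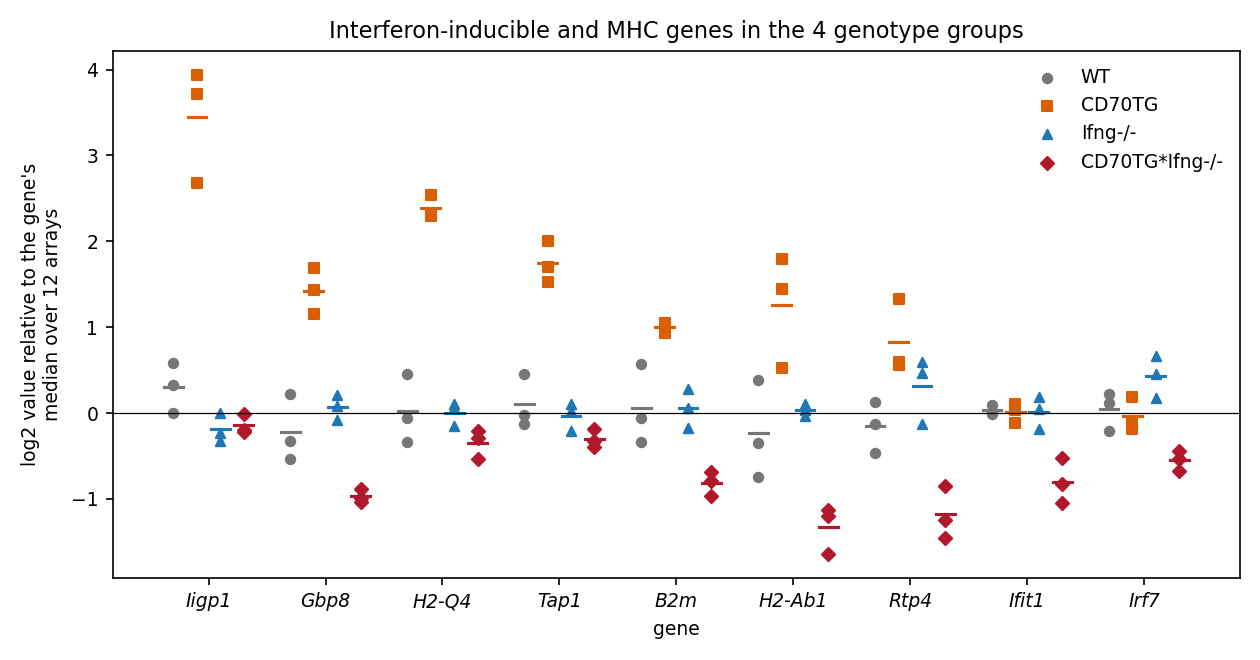
Log2 values relative to the gene's median over 12 arrays (y axis) of 9 interferon-inducible and MHC genes (x axis) in the 4 genotype groups, 1 point per mouse and a short line at each group mean. Iigp1 reaches 2.68 to 3.94 in CD70TG and lies between -0.32 and 0.58 in the other 9 arrays, and H2-Ab1 is lowest in the 3 CD70TG*Ifng-/- arrays, from -1.64 to -1.13.

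The falls in macrophage genes also appeared with Ifng intact. In CD70TG against WT, 539 genes were called lower (2.7% of those tested) and 1640 higher (8.23%). Of the 468 genes lower without Ifng, 219 were lower there too, which is 46.8% of the 468 and 40.6% of the 539, and 9 were higher there. The median CD70TG minus WT difference of the 468 was -0.40, and 85.5% of them had a negative difference, against 56.0% of all genes. Of 31 genes higher without Ifng 4 were among the 1640 higher with it, and those 1640 had a median difference of 0.40 with Ifng and of 0.02 without it. Among the 162 macrophage, monocyte and lysosome genes 59 were lower and 1 higher in CD70TG against WT, with a median of -0.32, against 85 and 0 and a median of -0.59 without Ifng.

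The interaction was also read for the leading genes, which were chosen by their fall without Ifng, a term of that interaction, so the values are a description. Ctsc and Ctss had the interactions farthest below 0 among the 15 leading genes: with Ifng, Ctsc read -0.17, 0.64 and 0.17 in WT and -1.07, -0.44 and 0.27 in CD70TG, and the interaction was -2.32 ± 0.37 (adjusted p = 0.00935), while that of Ctss was -2.08 ± 0.31 (adjusted p = 0.00536). C1qc had an interaction of -1.25 (adjusted p = 0.00955). Vcam1 had one of -1.43 ± 0.26 (adjusted p = 0.018), with 1.05, 1.69 and 1.11 in WT and -1.70, -1.75 and -1.05 in CD70TG, and it missed the threshold without CD70TG*Ifng-/- mouse 2 (0.0534), CD70TG*Ifng-/- mouse 3 (0.0515) or WT mouse 1 (0.0633). Hmox1 (-0.52 ± 0.24, adjusted p = 0.247), Ccr3 (-0.35 ± 0.28, adjusted p = 0.477), Mrc1 (-0.60 ± 0.26, adjusted p = 0.22) and Cd163 (-0.43, adjusted p = 0.444) had no called interaction, which does not show that their falls were equal. In Ifng-/- against WT limma called 1 gene (0.00502% of those tested), Pawr, and 2759 genes had an unadjusted p under 0.05. That comparison shares the Ifng-/- arrays with the main one. The 468 lower genes had a median Ifng-/- minus WT difference of 0.21, and 0 of them were called there.

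**Figure D5:**
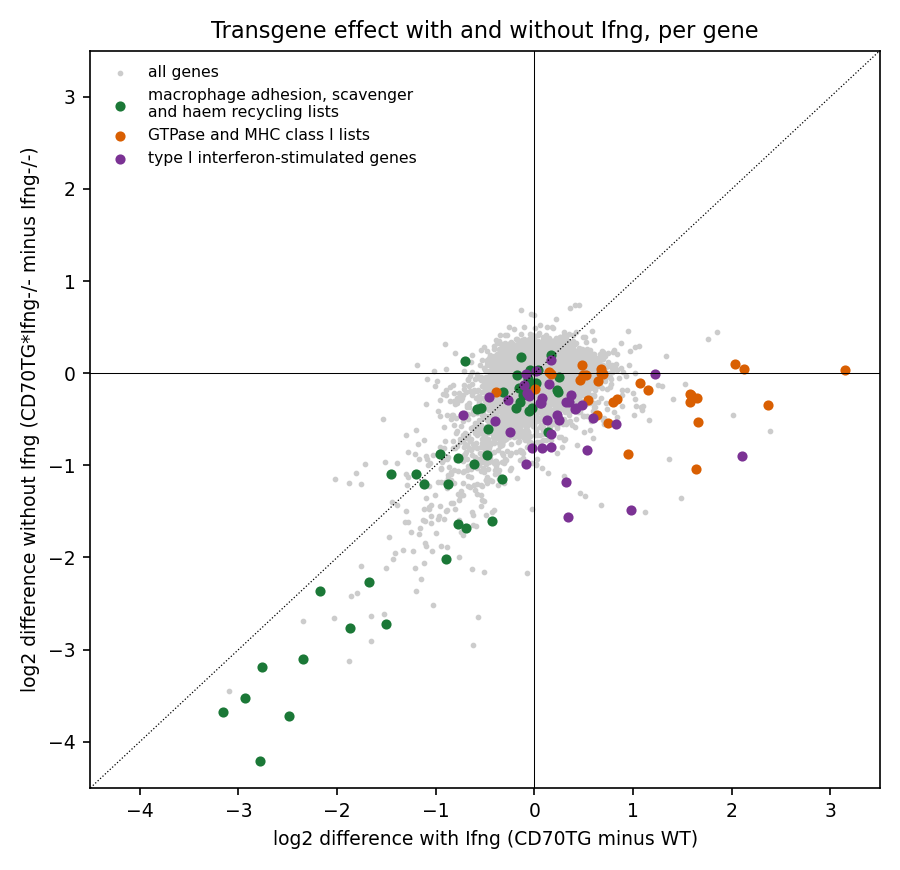
Each grey point is a gene, with the log2 difference CD70TG minus WT (Ifng intact) on the x axis and CD70TG*Ifng-/- minus Ifng-/- on the y axis; the dotted line marks equal differences and coloured points are members of the lists in the key. Macrophage genes such as Vcam1 (-2.78 and -4.21) lie at the lower left. GTPase and MHC class I genes lie mostly to the right, with list medians of 1.19 and 0.67 on the x axis. Their medians on the y axis are -0.27 and -0.14. Iigp1 lies at 3.15 and 0.04, while the lowest members of the 2 lists on the y axis lie at -1.04 and -0.87.

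Erythroid genes are those the CD71 enrichment targets. Of 27 genes listed for globin and haem synthesis, 18 were measured, and the main adult alpha and beta globin genes were not among them. In 6 lists of erythroid and cell cycle genes, with 134 measured members, 2 fell and 0 rose, against 2.35% and 0.156% of all genes tested, from which nothing is read about these lists; the median was 0.07 and differences ran from -0.79 to 0.34. Of 22 erythroid transcription factors limma called 0, with 3 at an unadjusted p under 0.05, and the median was 0.07. Gata1, the master regulator of the lineage, read -0.14, 0.21 and -0.05 in Ifng-/- against 0.21, 0.02 and -0.00 in CD70TG*Ifng-/- (0.07, with a 95% interval of -0.13 to 0.27). Klf1, which turns on adult globin genes, differed by 0.05 (-0.15 to 0.25). Tfrc, which codes for the sorted antigen CD71, differed by 0.11 (-0.06 to 0.28), and Epor, the erythropoietin receptor, by 0.23 (-0.02 to 0.49).

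The 2 erythroid list members that fell were Slc25a39, a mitochondrial carrier needed for haem synthesis, at 0.35, 0.26 and 0.13 against -0.23, -0.20 and -0.13 (1.35-fold lower, -0.43 ± 0.07, adjusted p = 0.0039), and Hfe, an iron sensor that macrophages also use, at 0.46, 0.45 and 0.45 against -0.45, -0.12 and -0.43 (1.73-fold lower, -0.79 ± 0.12, adjusted p = 0.00109). Alas2, the first enzyme of erythroid haem synthesis, differed by -0.20 (95% interval -0.37 to -0.04, adjusted p = 0.279). Of 23 red cell membrane genes limma called 0, with 6 at an unadjusted p under 0.05, and 11 had all arrays with the transgene above all arrays without it, where 9.32% of all genes did. The highest were Cd47, the surface signal that holds off phagocytes (0.31 ± 0.09, adjusted p = 0.0949), and the water channel gene Aqp1 (0.30 ± 0.09, adjusted p = 0.129). Of 33 cell cycle genes limma called 0 (6 at an unadjusted p under 0.05), and 9 had all arrays with the transgene above the others. Of 21 late maturation genes it called 0 (8 at an unadjusted p under 0.05), and 8 had them below, where 7.09% of all genes did. Leaving out Ifng-/- mouse 2 gave 1 called rise in each of the globin, membrane and cell cycle lists, leaving out WT mouse 3 gave 1 in the membrane list, and leaving out CD70TG mouse 3 gave 1 fall in the late maturation list and 2 in the iron list.

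In Epo, Kit and Stat5 signalling 2 of 24 members were called, where 2.35% of all genes were called lower and 0.156% higher. They were Kitl and Dusp6, a phosphatase that ends Erk signals (-0.72 ± 0.16, adjusted p = 0.0254). Without CD70TG*Ifng-/- mouse 2, CD70TG*Ifng-/- mouse 3 or Ifng-/- mouse 3 the count was 0, and without CD70TG*Ifng-/- mouse 1 or Ifng-/- mouse 1 it was 1. Cell death genes gave 2 falls, Casp1 and the tumour necrosis factor receptor gene Tnfrsf1b (-0.59, adjusted p = 0.0137), and 1 rise, Pawr, of 22, and the falls were 4 without Ifng-/- mouse 2 and 1 without CD70TG*Ifng-/- mouse 1, CD70TG*Ifng-/- mouse 3 or Ifng-/- mouse 1. Of 20 progenitor regulators limma called 0, with 3 at an unadjusted p under 0.05. Of 30 immediate early and heat shock genes, the former known to be induced within minutes in handled cells, 5 fell: Rgs1, Fosb, Zfp36, Rgs2 and Fos. Zfp36 read 1.52, 0.21 and 0.74 against -0.44, -0.21 and -0.37 (-1.16 ± 0.24, adjusted p = 0.0136), so that Ifng-/- mouse 1 was highest. The list's count was 2 without CD70TG*Ifng-/- mouse 1, 3 without CD70TG*Ifng-/- mouse 2, 2 without CD70TG*Ifng-/- mouse 3 and 8 without Ifng-/- mouse 2. Fos (-0.84, adjusted p = 0.047) missed the threshold when any array other than Ifng-/- mouse 2 was left out (0.0514 to 0.172). Rgs2 (-1.03, adjusted p = 0.0222) missed it without CD70TG*Ifng-/- mouse 1 (0.0766), mouse 2 (0.0876) or mouse 3 (0.084). Zfp36 missed it without CD70TG*Ifng-/- mouse 1 (0.0622) or mouse 3 (0.0682). Immediate early genes are also high in myeloid cells, and the part of those cells in this result was not tested. Limma called 0 of 60 cytosolic and 0 of 77 mitochondrial ribosomal protein genes, with 2 and 0 at an unadjusted p under 0.05. It called 0 of 18 p53 targets (5 at an unadjusted p under 0.05), and 1 without Ifng-/- mouse 2.

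The rises were few and small. Pawr, a cell death protein that is also the 1 gene called in Ifng-/- against WT, read 0.48, 0.77 and 0.36 in Ifng-/- against 1.09, 1.21 and 1.43 in CD70TG*Ifng-/- (1.63-fold higher, 0.71 ± 0.11, adjusted p = 0.00202), and all 6 WT and CD70TG arrays lay between -0.88 and -0.36. Pawr thus also differed with the Ifng genotype. Genes near Ifng may carry alleles of the strain in which Ifng was targeted, and the part of such alleles in this rise was not tested. Ndrg2, a stress-regulated protein, read -0.16, -0.01 and -0.06 against 0.32, 0.34 and 0.45 (0.45, adjusted p = 0.00399) and was 0.42 higher in CD70TG than in WT as well (adjusted p = 0.0047). Olfr172, an olfactory receptor gene with no known role in marrow, was 0.64 higher (adjusted p = 0.00435). These 3 kept their calls without any single array. Olfactory receptors gave 4 rises of 1027 and a median of 0.05, where 0.156% of all genes were called higher. The count was 2 without CD70TG*Ifng-/- mouse 2 or Ifng-/- mouse 3 and 1 without CD70TG*Ifng-/- mouse 3.

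Malat1, an abundant nuclear RNA, read -0.08, -0.02 and -0.26 against 0.48, 0.49 and 0.54 (1.54-fold higher, 0.63 ± 0.12, adjusted p = 0.00957), and missed the threshold without CD70TG*Ifng-/- mouse 3 (0.0564) or Ifng-/- mouse 3 (0.0558). The small nucleolar RNA Snora20 (0.74, adjusted p = 0.0421), Reln (0.68, adjusted p = 0.0193), Ift57 (0.50, adjusted p = 0.0295), Aim2 (0.50, adjusted p = 0.0461), Ccdc77 (0.49, adjusted p = 0.0253) and Tank (0.45, adjusted p = 0.0316) complete the 10 largest rises. Snora20 missed the threshold under quantile normalization (a difference of 1.17, 0.0612), median centring (0.0599) and centring within level classes (0.0696), and without any 1 of the WT arrays or CD70TG mouse 2 (0.0562 to 0.0645). Aim2 missed it under median centring (0.0607) and centring within level classes (0.0635), and without any 1 of the WT arrays, CD70TG mouse 3 or CD70TG*Ifng-/- mouse 2 (0.0561 to 0.088). Ift57 missed it under centring within level classes (0.0518) and without CD70TG*Ifng-/- mouse 2 (0.0867), and Tank under median centring (0.0531) and without CD70TG mouse 2 (0.0519). Each of these 6 missed the threshold without Ifng-/- mouse 1 (adjusted p from 0.074 for Reln to 0.153 for Aim2), without Ifng-/- mouse 3 (0.101 for Reln to 0.166 for Aim2), without CD70TG*Ifng-/- mouse 1 (0.0649 for Aim2 to 0.175 for Snora20) and without CD70TG*Ifng-/- mouse 3 (0.0961 for Reln to 0.238 for Aim2).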

How the data were processed

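Per the labels, total RNA was extracted with Trizol and hybridised to Affymetrix whole-transcript arrays. The authors deposited log2 values made with RMA, per the submitters' processing notes; the version is not given in the sources used here. Neither the log base nor the centring is stated: the deposited log2 values have a median of 0 in each of 28815 probe sets (within 1e-06) and run from -3.246 to 6.699, and log2 and the direction are taken from RMA. Rounding steps of the deposited values showed which probe sets had an original level of at least 8 on all 12 arrays (4320, 15.0%), a class that a gene falling below that bound cannot enter.

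Probe sets with 1 symbol in the platform annotation (21780) were averaged per gene, giving 19935 genes, 998 of them from several probe sets; 1605 had several symbols and 5430 none and were not used. Of the probe sets with 1 symbol, 21689 matched RefSeq (GRCm38.p6) by Entrez ID, with 0 symbols changed. Limma 3.58.1 in R 4.3.3 fitted 4 group means over 12 arrays with 8 residual degrees of freedom, and p-values were two-sided and adjusted over all genes (Benjamini-Hochberg, 0.05). On simulated data for this comparison over 19935 genes, 48 of 67 genes changed by 0.5 were recovered, 67 of 67 changed by 1 and 66 of 66 changed by 2. The changed genes were picked at random and the noise was independent between genes and arrays. Deviations that many genes of 1 array share, as in Ifng-/- mouse 2, were therefore left out. For genes that vary with that mouse the recovery is not known: 0 of 20 mature neutrophil genes were called, with differences down to -1.4. The number of arrays, 3 per group, limits the precision. Same-numbered mice did not deviate together (correlations -0.22, -0.40 and -0.10), so replicate numbers were not used as pairs.

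The genes and lists were chosen with earlier results of these data known. Named genes were the CD70 axis and erythroid genes, the 15 largest falls and 10 largest rises, up to 5 members per list with the smallest p, and the leading interaction genes. Alternatives were other normalizations, a level filter, a replicate block, array weights, only the 6 arrays, a stricter threshold and each array left out.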

Additional observations from a re-analysis of the deposited data

Results flagged for a closer look

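The transgene effect without Ifng differed from that with Ifng, by limma's interaction test, in 377 genes, and 4041 genes had an unadjusted p under 0.05. Of 27 named genes among them, 18 kept the call without any single array. Adgre1, Agtr1a, C1qb, Cd5l, Cd79a, Chst10, Lap3, Olfr172 and Vcam1 lost it without at least 1 array.

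Interactions below 0 on the log2 scale in interferon-inducible genes were -3.11 for Iigp1, -2.99 for Oasl2, -2.68 for Gbp8, -2.47 for Rtp4, -2.18 for Gbp7, -1.31 for the chemokine Cxcl10, -1.30 for the peptidase Lap3, -1.13 for the necroptosis gene Mlkl and -0.76 for Oas1a. In these 9 genes the CD70TG minus WT difference was above 0. In the MHC pathways they were -2.85 for H2-Ab1, -2.72 for H2-Q4, -1.91 for Tap1, -1.83 for Psmb9 and -1.03 for H2-DMa.

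For macrophage and lysosomal genes, which had a difference below 0 with and without Ifng, the interactions were -2.32 for Ctsc, -2.08 for Ctss, -1.43 for Vcam1, -1.25 for C1qb, -1.25 for C1qc, -1.23 for Cd5l and -1.22 for Adgre1.

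In 6 genes the interaction was above 0. It was 1.28 for Grap2, a T cell and platelet adaptor, which differed by -1.20 between CD70TG and WT and by 0.09 here. It was 1.22 for Runx1t1, 1.04 for Chst10, 1.04 for Cd79a and 1.02 for Agtr1a, each lower in CD70TG than in WT and not called here. For Olfr172 it was 0.67, with a rise here and no called difference between CD70TG and WT.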

How the results depend on the processing

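Of 92 named genes called in the comparison, 83 kept their call under quantile normalization, median centring and centring within level classes, 82 with the replicate block, and 62 without any single array. No named call changed sign under the alternatives run. The 468 lower genes became 56 of those in the higher level class only, 944 with array weights, 273 at an adjusted p under 0.01, and 292 to 744 with 1 array left out. The 31 higher genes became 20 with median centring, 11 in the higher level class, 495 with array weights, 13 with only the 6 arrays compared, 4 at an adjusted p under 0.01, and 5 to 124 with 1 array left out. The 377 interactions became 128 with the replicate block, 2040 with array weights, 52 at an adjusted p under 0.01, and 82 to 711 with 1 array left out. The 159 called genes of at least 2-fold difference, all lower in the main fit, became 8 in the higher level class and 118 to 258 with 1 array left out, counted in either direction. The 134 lower list members became 25 in the higher level class, 214 with array weights, and 95 to 196 with 1 array left out. The replicate block gave 380 lower and 21 higher genes. The level class tests fewer genes and leaves out those that fell below its bound; for the other counts the cause was not tested. Absolute levels are not held beyond the class of at least 8, so signal over background is not given for the other genes. Under quantile normalization and under centring within level classes, 1 member was called lower in each of the plasma cell and late maturation lists and 2 in each of the megakaryocyte and erythroid iron lists. Quantile normalization alone also gave 1 fall in the mature neutrophil list and 1 rise in the red cell membrane list. With only the 6 arrays compared, Aim2, Ccdc77, Cxcl2, Dusp6, Fcrl1, Fos, Ifngr2, Itgax, Klrc1, Olfr1054, Rgs2, Snora20, Tank and Zfp36 lost their calls, and with the replicate block Aim2, Cd79b, Dusp6, Fos, Ifngr2, Klrc1, Lap3, Rgs2, Snora20 and Tank did.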

Other observations

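Of the 468 lower genes, 334 were in none of the 43 lists, and 91 of these were at least 2-fold lower. The following were chosen after their values were seen. Marcks, a substrate of protein kinase C, read 1.35, 1.08 and 1.38 in Ifng-/- against -1.28, -0.92 and -1.25 in CD70TG*Ifng-/- (5.34-fold lower, -2.42 ± 0.18, limma adjusted p = 2.31e-06). Adgre4, an adhesion receptor of the same family as Adgre1, read 1.78, 1.49 and 1.55 against -0.85, -0.48 and -0.69 (4.84-fold lower). Igf1, a growth factor that macrophages also secrete, read 1.22, 1.07 and 1.18 against -0.93, -0.71 and -0.75 (3.86-fold lower, -1.95 ± 0.12). In these 3 genes Ifng-/- mouse 2 lay with its group.

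A further 4 genes outside the lists were also chosen after their values were seen. The ceramidase gene Asah1 was 4.37-fold lower and the selenium carrier gene Selenop 4.32-fold lower. The progranulin gene Grn was 3.98-fold lower. The complement receptor gene Vsig4, known from resident macrophages, was 2.01-fold lower, at 0.72, 0.52 and 0.64 against -0.48, -0.44 and -0.22. Asah1 and Grn had called interactions (-1.50, adjusted p = 0.0127, and -1.23, adjusted p = 0.0231), while Selenop and Vsig4 did not (adjusted p = 0.181 and 0.226).

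Kcnma1, a potassium channel gene, was 4.48-fold lower (adjusted p = 0.0308) with 3.35, 0.31 and 2.61 in Ifng-/- against -0.17, 0.11 and -0.17, so that Ifng-/- mouse 2 lay near the transgenic arrays. The pan-leukocyte gene Ptprc read 1.44, 0.06 and 0.41 against -1.11, -0.65 and -0.78 (2.80-fold lower, adjusted p = 0.0055), and the integrin gene Itgb2 read 1.73, 0.09 and 0.72 against -0.79, -0.24 and -0.73 (2.71-fold lower, adjusted p = 0.02). In both, Ifng-/- mouse 1 was highest.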
